A study of Homo sapiens with 4 samples.

Results

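Genes of the junctions that join epithelial cells were followed in KYSE410 cells, a cell line established from an esophageal squamous carcinoma, after treatment with YM155. The 38 genes were listed by name: 11 of the desmosome, 9 of the adherens junction and related adhesion molecules, 11 of the tight junction, 3 of cell polarity and 4 of the gap junction. They were chosen with earlier results of these data known. A gene was measured by every probe set annotated with its symbol alone, which gave 84 of 54613 probe sets on the array and covered 36 of the 38 genes. CTNND1, which encodes p120 catenin, had 4 probe sets that also carried a second gene symbol, and F11R, which encodes the adhesion molecule JAM-A, had none with its symbol alone, so neither was analysed here.

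Desmosomes anchor keratin filaments of neighbouring cells to each other through desmogleins and desmocollins outside the cell and a plaque of plakoglobin, plakophilins and desmoplakin inside it. Adherens junctions link cadherins and nectins to actin through catenins and afadin, and tight junctions seal the gap between cells with claudins and with occludin and its MARVEL-domain relatives, held by the ZO scaffold proteins. Gap junctions are channels of connexins that pass small molecules between cells. Stratified squamous epithelium, the tissue of origin of this tumour type, is rich in desmosomes.

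The series held 2 arrays of KYSE410 cells treated with YM155 at 20 nM for 6 h and 2 arrays of untreated KYSE410 cells. All cells were grown in RPMI medium with fetal bovine serum and antibiotics. YM155 is a drug-like compound known for lowering the expression of survivin, an inhibitor of apoptosis. The protocol text conflicts with this, since it gives cisplatin (10 mM, 12 h). The grouping here rests on the titles and treatment labels, and the drug that the treatment labels name is YM155. No vehicle, culture or day is named. The treated titles carry the codes B1 and B2, which are not explained and stand with the replicate numbers, so a batch or culture code cannot be told apart from the replicate. Thus p-values reflect only how far these arrays scatter, possibly for technical reasons, and the groups stand for 1 cell line only.

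The untreated arrays lay further apart than the YM155 arrays. Of 32768 probe sets kept after a filter on low values, 56 differed by 2-fold or more between the YM155 arrays and 1690 between the untreated arrays. Untreated replicate 1 was closer to the YM155 arrays, with 739 and 850 such probe sets, than to untreated replicate 2, which stood apart from all others, with 1811 and 2140 against the YM155 arrays. Where the untreated arrays gave very different distances, both are given below. The signal of the 3' ACTB control probe set exceeded that of the 5' one by 2.10 and 2.95 log2 on YM155 replicates 1 and 2, and by 2.72 and 2.18 log2 on untreated replicates 1 and 2. This measure of transcript integrity differed within both groups. The same measure for GAPDH was 0.03 and 0.21 log2 on YM155 replicates 1 and 2, and 0.04 on both untreated arrays. The part of these measures in the results was not tested. In RNA from whole cultures, fewer cells of a kind and less RNA per cell cannot be told apart.

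The differences of the junction genes did not run one way. Occludin, tricellulin, ZO-1, plakoglobin, desmoplakin, desmoglein 2 and the connexin gene GJB2 stood 1.3- to 1.88-fold higher with YM155, and cingulin stood lower. E-cadherin, P-cadherin, EPCAM and the catenin genes CTNNB1 and CTNNA1 lay within 0.21 log2 of their untreated mean. Values are log2 of the intensity of each gene's brightest probe set, so that a difference of 1 is a doubling, and differences are YM155 minus untreated with the standard error (SE) from limma. No junction gene passed the test across the array: by limma, 0 of 14043 genes (0%) reached an adjusted p under 0.05, and the lowest adjusted p among junction genes was 0.192, for GJB2. At an unadjusted p under 0.05, 7 of the 36 measured junction genes were higher, beside 5.23% of all genes tested, and 1 was lower, beside 7.48%.

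**Figure D1:**
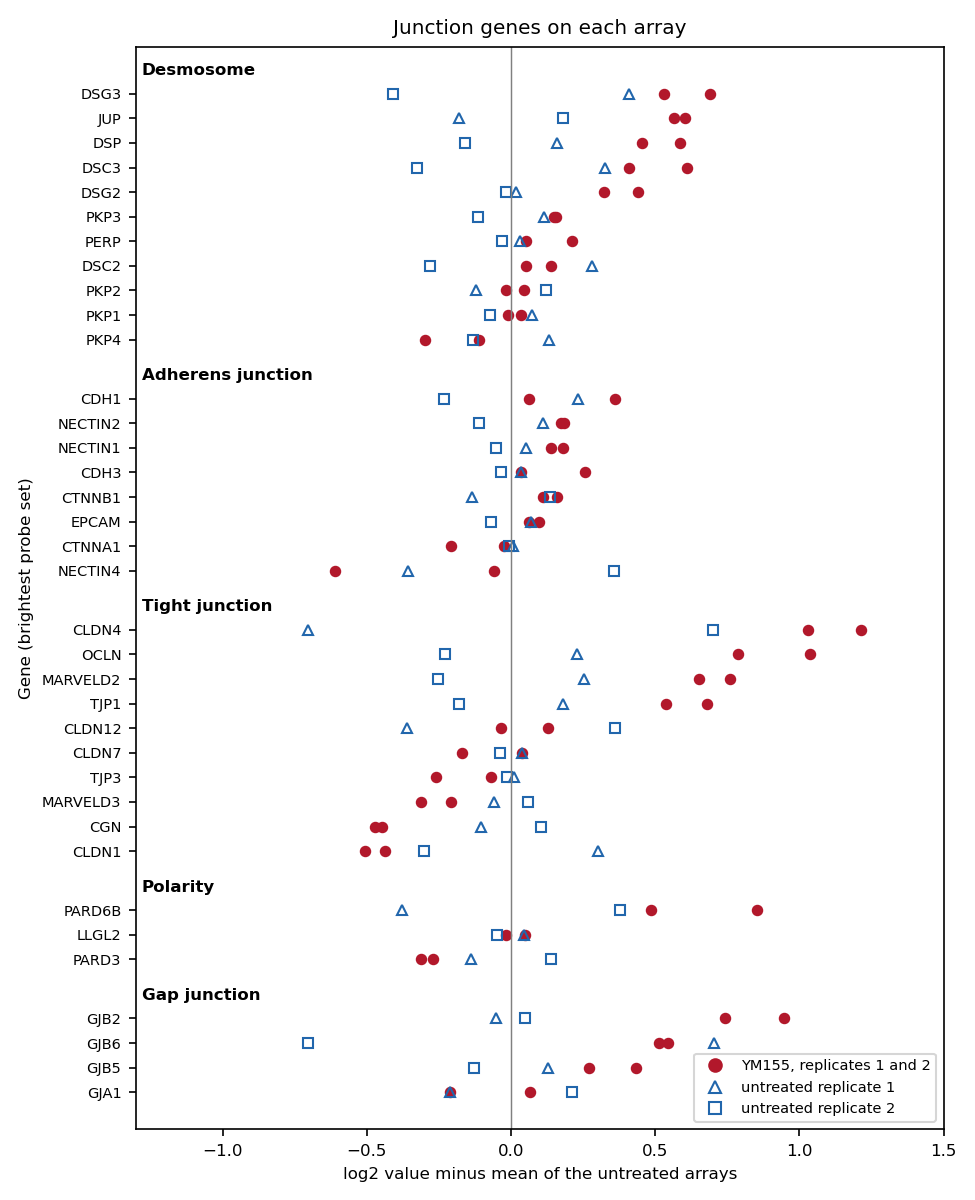
Each row is a junction gene, with the log2 value of its brightest probe set on each array minus the mean of the untreated arrays. Filled circles are the 2 YM155 arrays, open triangles untreated replicate 1 and open squares untreated replicate 2; both YM155 arrays lie right of both untreated arrays for 16 genes and left of both for 6.

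Both YM155 arrays lay above both untreated arrays for 16 of the 36 genes, beside 19.3% of all genes, and below both for 6, beside 25.6%. The median difference over the 36 genes was 0.14 log2, and over all genes tested it was -0.015. In all, 26 differences were positive, beside 47.1% of all genes, and 10 negative. A difference of 0.5 log2 or more was seen for 11 genes on the higher side, beside 5.63% of all genes, and for 0 on the lower side, beside 6.94%. Because the list was chosen with earlier results known, these counts do not test junction genes as a class.

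In the desmosome, 10 of 11 genes had positive differences, with a median of 0.15 log2, and 3 of them had an unadjusted p under 0.05. The largest among these 3 was that of JUP, the gene of plakoglobin, which links the desmosomal cadherins to desmoplakin. JUP was at 10.30 and 10.26 log2 on the YM155 arrays, against 9.52 and 9.87 on the untreated arrays. The YM155 arrays nearly coincided and lay above both untreated arrays, of which replicate 1 was the lower. The difference was 0.58 ± 0.17 log2 (SE, n = 2 arrays per group; limma adjusted p = 0.304).

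DSP encodes desmoplakin, the plaque protein that binds keratin filaments. It was at 11.30 and 11.44 log2 on the YM155 arrays and at 11.01 and 10.69 on the untreated arrays, which is 0.52 ± 0.17 higher (SE; limma adjusted p = 0.33). The groups did not overlap, and here untreated replicate 2 was the lower one. DSG2, the desmoglein found in all desmosome-bearing tissues, was at 10.95 and 10.83 log2 on the YM155 arrays and at 10.53 and 10.49 on the untreated arrays. Its untreated arrays differed little, and its difference of 0.38 ± 0.13 (SE; limma adjusted p = 0.346) was similar against either one, at 0.36 and 0.40. A dimmer DSG2 probe set did not show it (-0.06), with 8.79 and 8.26 log2 on the YM155 arrays against 8.36 and 8.81 on the untreated arrays.

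The desmosomal cadherins of the basal and lower layers of stratified epithelium, DSG3 and DSC3, stood higher against untreated replicate 2 much more than against replicate 1. DSG3, the pemphigus vulgaris antigen, was at 8.27 and 8.11 log2 on the YM155 arrays and at 7.98 and 7.17 on the untreated arrays, which gave 0.20 and 1.02 against untreated replicates 1 and 2. DSC3 was at 8.39 and 8.59 on the YM155 arrays and at 8.31 and 7.66 on the untreated arrays, which gave 0.18 and 0.84. In both genes the YM155 arrays were the highest of the 4, but untreated replicate 1 lay close beneath them. The limma differences were 0.61 ± 0.30 (SE; adjusted p = 0.489) for DSG3 and 0.51 ± 0.25 (SE; adjusted p = 0.498) for DSC3. All 3 kept probe sets of DSC3 and both of DSG3 had positive differences. A dimmer DSC3 probe set overlapped, at 7.64 and 7.56 log2 on the YM155 arrays and at 7.68 and 6.93 on the untreated arrays. It stood at -0.08 against untreated replicate 1 and 0.67 against replicate 2.

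The plakophilins, armadillo proteins of the plaque, stayed near their untreated level in their brightest probe sets. PKP1 differed by 0.01 log2 (95% confidence interval -0.33 to 0.36), PKP2 by 0.02 (-0.37 to 0.40) and PKP3 by 0.15 (-0.22 to 0.52). PKP4, a plakophilin relative also found at adherens junctions, was the 1 desmosome gene with a negative difference, at -0.20 (-0.63 to 0.22). A dimmer PKP2 probe set stood lower, at 4.38 and 4.20 log2 on the YM155 arrays against 4.59 and 5.13 on the untreated arrays. PERP, a desmosomal membrane protein and p53 target, differed by 0.13 log2, and DSC2, a widely expressed desmocollin, by 0.09, with untreated arrays on either side of the YM155 arrays for DSC2.

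Differences of the adherens junction genes other than NECTIN4 lay between -0.11 and 0.21 log2. Of the 8 measured, 0 had an unadjusted p under 0.05, 6 had positive differences, and the median was 0.14 log2. CDH1, which encodes E-cadherin, the main epithelial cadherin, was at 10.90 and 10.61 log2 on the YM155 arrays and at 10.78 and 10.31 on the untreated arrays, so that the groups overlapped. Its difference was 0.21 log2 with a 95% confidence interval from -0.36 to 0.78. CDH3, which encodes P-cadherin of basal epithelial cells, differed by 0.15 (-0.23 to 0.52). The cadherin-binding catenin genes CTNNB1 (0.13, interval -0.26 to 0.53) and CTNNA1 (-0.11, interval -0.47 to 0.24) had opposite signs. EPCAM, an epithelial adhesion molecule outside the cadherin family, differed by 0.08 (-0.26 to 0.42).

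The nectins, immunoglobulin-like adhesion molecules, lay between -0.33 for NECTIN4 and 0.18 for NECTIN2. NECTIN4 was at 6.51 and 5.96 log2 on the YM155 arrays and at 6.21 and 6.92 on the untreated arrays, with neither group tight. NECTIN2 depended on the probe set. Its brightest one was at 7.20 and 7.19 log2 on the YM155 arrays against 7.13 and 6.90 on the untreated arrays. A second, nearly as bright, was at 6.56 and 6.55 on the YM155 arrays against 6.69 and 7.82 on the untreated arrays, a difference of -0.70 that came mainly from untreated replicate 2. NECTIN1 differed by 0.16.

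Tight junction genes had both signs within each kind of protein: the 10 measured had 5 positive and 5 negative differences, among them the largest positive and the largest negative ones of the 36 genes. The median was -0.010 log2. OCLN encodes occludin, a membrane protein with a MARVEL domain. It was at 10.28 and 10.03 log2 on the YM155 arrays, against 9.47 and 9.01 on the untreated arrays, 1.88-fold higher. Both YM155 arrays lay above both untreated arrays, by 0.68 log2 in the mean over untreated replicate 1 and by 1.14 over replicate 2. The difference was 0.91 ± 0.21 (SE; limma adjusted p = 0.242), and all 4 OCLN probe sets had positive differences, between 0.40 and 1.15. A dimmer probe set overlapped, at 6.64 and 6.37 log2 on the YM155 arrays and at 6.47 and 5.64 on the untreated arrays. It stood 0.03 above untreated replicate 1 and 0.87 above replicate 2.

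MARVELD2 encodes tricellulin, a relative of occludin found where 3 cells meet. It was at 8.77 and 8.67 log2 on the YM155 arrays and at 8.27 and 7.76 on the untreated arrays, or 0.71 ± 0.21 higher (SE; limma adjusted p = 0.312). Its second probe set gave the same size, 0.71, from 6.80 and 6.36 on the YM155 arrays and 6.05 and 5.70 on the untreated arrays. The groups did not overlap in either probe set. MARVELD3, the third MARVEL-domain protein of tight junctions, stood on the other side: 7.82 and 7.71 on the YM155 arrays against 7.97 and 8.08 on the untreated arrays, with -0.26 ± 0.13 between them (SE; limma adjusted p = 0.503). All 3 of its probe sets had negative differences, between -0.26 and -0.056, though in the dimmest one the groups nearly touched.

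The scaffold proteins of the tight junction also went different ways. TJP1, the gene of ZO-1, which ties occludin and claudins to actin, was at 10.88 and 10.74 log2 on the YM155 arrays and at 10.38 and 10.02 on the untreated arrays. The difference was 0.61 ± 0.17 (SE; limma adjusted p = 0.301), without overlap, and it was 0.19 in a dimmer probe set whose arrays overlapped. CGN encodes cingulin, a cytoplasmic protein that binds ZO-1. It was at 6.91 and 6.94 on the YM155 arrays and at 7.28 and 7.49 on the untreated arrays, which puts it at -0.46 ± 0.14 (SE; limma adjusted p = 0.317). CGN was the 1 junction gene lower at an unadjusted p under 0.05, and its second probe set gave -0.52. TJP3, the gene of ZO-3, differed by -0.16, and its second probe set by -0.26, both without overlap.

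Among the claudins, CLDN4 had the largest difference of all junction genes and the least certain one. It was at 9.66 and 9.47 log2 on the YM155 arrays and at 7.74 and 9.15 on the untreated arrays. The YM155 arrays lay above both, but the distance was 1.82 from untreated replicate 1 and 0.42 from replicate 2. The limma difference was 1.12 ± 0.48 (SE; adjusted p = 0.433), and a second, dimmer probe set gave 0.23. CLDN7 differed by -0.07 (95% confidence interval -0.44 to 0.30) and CLDN12 by 0.05 (-0.66 to 0.76). CLDN1 was dim, at 3.81 and 3.88 on the YM155 arrays and at 4.61 and 4.01 on the untreated arrays, near the filter's limit of 3.32 log2, and its difference of -0.47 ± 0.23 (SE; limma adjusted p = 0.494) is that of a weak signal.

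Promoter sequences were at hand for 25 of the 38 genes, as 250 bases before the start of 37 RefSeq transcripts (GRCh38.p14). These windows were searched on both strands for CACCTG, the E-box letters bound by Snail and ZEB repressors. For AACCNGTT, the letters bound by Grainyhead-like factors, only the gene's strand was searched. CACCTG or its reverse complement CAGGTG was present for 9 of the 25 genes (36.0%) and for 20.6% of all 27305 genes with a window. The 9 were DSG2, DSC2, DSP, JUP, NECTIN4, TJP1, TJP3, OCLN and CLDN7. Of these, NECTIN4 (-0.33), TJP3 (-0.16) and CLDN7 (-0.07) had negative differences, and CLDN7 held 4 matches in its second window. A gene counted if any of its windows held the letters. Counted by window, 10 of 37 (27.0%) held them, beside 17.5% of all 35116 windows. On the gene's strand, AACCNGTT was present for 0 of the 25 and for 1.02% of all genes, a share too low for 25 genes to say anything. The other strand was not counted, and there at least the CGN window holds these letters. Windows are shown for OCLN, TJP1 and DSP as genes that stood higher and have an E-box, and for MARVELD2, GJB2 and CLDN4 as genes that stood higher and have none; the windows of DSG3 and DSC3, which also stood higher, have none either. Letters are 5′ to 3′ on the gene's strand, and capitals mark the E-box.
OCLN (chr5:69492297-69492546, plus strand): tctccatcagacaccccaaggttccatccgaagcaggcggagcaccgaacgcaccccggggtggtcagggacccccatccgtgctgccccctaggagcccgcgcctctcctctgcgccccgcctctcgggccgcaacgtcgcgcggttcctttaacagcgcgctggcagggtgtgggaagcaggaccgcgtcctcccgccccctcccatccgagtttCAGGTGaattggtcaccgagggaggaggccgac
MARVELD2 (chr5:69414866-69415115, plus strand): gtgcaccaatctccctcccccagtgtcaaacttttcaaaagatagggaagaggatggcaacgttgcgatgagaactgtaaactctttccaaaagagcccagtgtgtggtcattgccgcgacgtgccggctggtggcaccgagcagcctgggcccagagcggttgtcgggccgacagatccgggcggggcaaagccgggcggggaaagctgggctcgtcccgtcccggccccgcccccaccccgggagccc
TJP1 (chr15:29969050-29969299, minus strand): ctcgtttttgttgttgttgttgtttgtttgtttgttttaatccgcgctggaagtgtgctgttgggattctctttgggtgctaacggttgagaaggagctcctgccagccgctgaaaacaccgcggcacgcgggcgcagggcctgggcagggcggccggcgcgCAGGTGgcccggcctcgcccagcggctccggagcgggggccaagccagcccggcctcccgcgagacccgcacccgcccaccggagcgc
DSP (chr6:7541421-7541670, plus strand): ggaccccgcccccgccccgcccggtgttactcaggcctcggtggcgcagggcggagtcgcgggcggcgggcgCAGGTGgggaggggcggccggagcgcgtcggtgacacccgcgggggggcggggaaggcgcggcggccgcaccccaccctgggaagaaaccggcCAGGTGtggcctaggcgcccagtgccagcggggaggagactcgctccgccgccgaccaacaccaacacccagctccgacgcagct
GJB2 (chr13:20192939-20193188, minus strand): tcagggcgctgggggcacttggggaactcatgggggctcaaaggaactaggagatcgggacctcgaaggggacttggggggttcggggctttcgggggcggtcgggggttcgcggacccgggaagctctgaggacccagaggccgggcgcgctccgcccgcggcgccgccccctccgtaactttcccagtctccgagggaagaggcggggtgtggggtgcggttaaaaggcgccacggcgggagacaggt
CLDN4 (chr7:73830746-73830995, plus strand): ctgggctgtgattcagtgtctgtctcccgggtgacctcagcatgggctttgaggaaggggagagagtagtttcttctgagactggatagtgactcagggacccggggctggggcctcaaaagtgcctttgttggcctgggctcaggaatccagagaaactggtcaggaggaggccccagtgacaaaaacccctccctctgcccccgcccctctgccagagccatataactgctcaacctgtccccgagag

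The E-box began 33 bases before the OCLN start and 88 bases before the TJP1 start, and DSP held it at 178 and 85 bases. These are the first of 2 OCLN windows and of 4 TJP1 windows; the second OCLN window held it too and the other TJP1 windows did not. JUP held it 54 and 43 bases before the start in its second window only. The 9 genes with an E-box had a median difference of 0.38 log2, with 6 positive, and the 16 with a window but no E-box had 0.13, with 11 positive. The same split was not made over all genes, and the listed genes were chosen with earlier results known. A link between the E-box and the differences was therefore not tested. A match is a description of letters in this window.

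**Figure D2:**
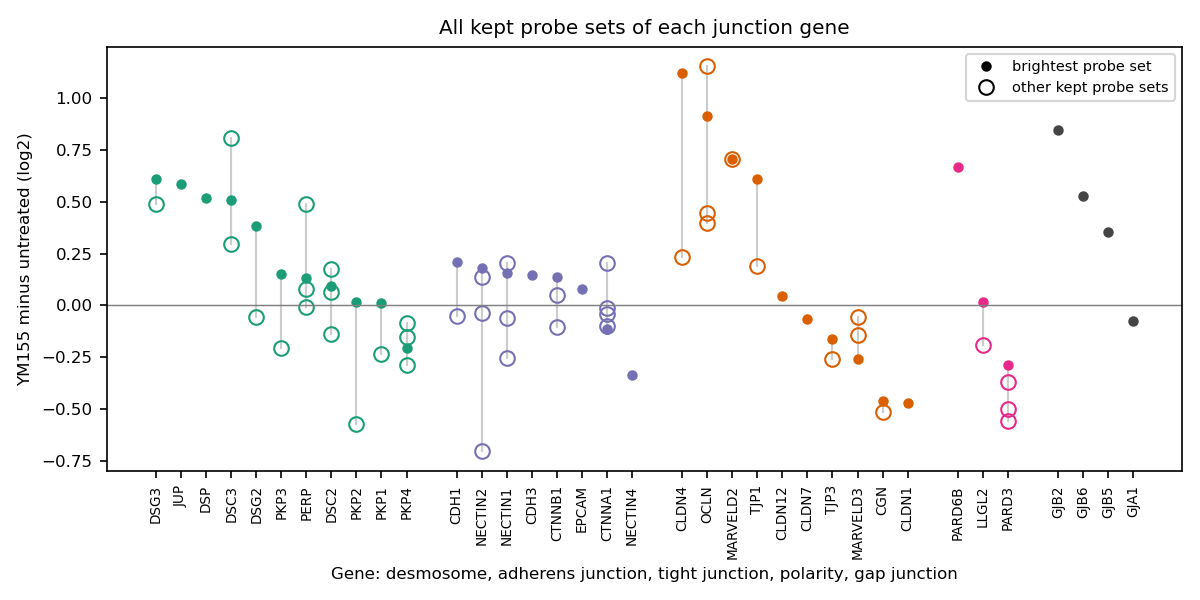
Points are the YM155 minus untreated differences (log2) of all 79 kept probe sets of the 36 junction genes, grouped by junction and ordered by the brightest probe set. Small filled points mark the brightest probe set of a gene and large open ones the others; all probe sets of OCLN, MARVELD2 and DSC3 lie above 0 and all of CGN, MARVELD3, PARD3 and PKP4 below it.

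Of the 23 genes with more than 1 kept probe set, 11 had the same sign in all of them, as the plot of all kept probe sets shows. Tested one by one, 9 of 79 probe sets were higher at an unadjusted p under 0.05, beside 5.03% of all kept probe sets, and 2 were lower, beside 6.06%. None of the 79 passed after adjustment, as none of 32768 did by limma (0%), where 1647 were higher and 1986 lower at an unadjusted p under 0.05.

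In the polarity group, PARD3 and PARD6B, partners in the PAR complex that places the tight junction, had opposite signs. PARD6B was at 5.91 and 6.28 log2 on the YM155 arrays and at 5.04 and 5.80 on the untreated arrays. The YM155 arrays lay above both, by 1.05 over untreated replicate 1 and 0.29 over replicate 2, and the limma difference was 0.67 ± 0.30 (SE; adjusted p = 0.455). PARD3 was at 8.99 and 8.95 on the YM155 arrays and at 9.12 and 9.40 on the untreated arrays, which puts it at -0.29 ± 0.15 (SE; limma adjusted p = 0.516). All 4 PARD3 probe sets had negative differences without overlap, between -0.56 and -0.29. LLGL2, which encodes a basolateral polarity protein, differed by 0.01 (95% confidence interval -0.32 to 0.35).

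Of the connexin genes, GJB2 had the lowest p of all junction genes. It encodes a connexin of skin and inner ear whose loss causes deafness. GJB2 was at 5.85 and 5.64 log2 on the YM155 arrays and at 4.85 and 4.95 on the untreated arrays, 1.8-fold higher. Each group was tight and the difference was alike against either untreated array, 0.89 and 0.79. It was 0.84 ± 0.14 (SE; limma adjusted p = 0.192) and rests on 1 probe set.

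GJB6, which encodes a connexin that often pairs with that of GJB2, was at 6.26 and 6.23 log2 on the YM155 arrays but at 6.42 and 5.01 on the untreated arrays, so its difference was -0.17 against untreated replicate 1 and 1.23 against replicate 2. The YM155 arrays lay between the untreated arrays, and the limma difference of 0.53 ± 0.48 (SE; adjusted p = 0.709) averages opposite signs. GJB5, a connexin gene of stratified epithelium, was at 6.99 and 6.82 on the YM155 arrays and at 6.68 and 6.42 on the untreated arrays, a difference of 0.35. GJA1, the most widely expressed connexin gene, differed by -0.07 (95% confidence interval -0.61 to 0.46).

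**Figure D3:**
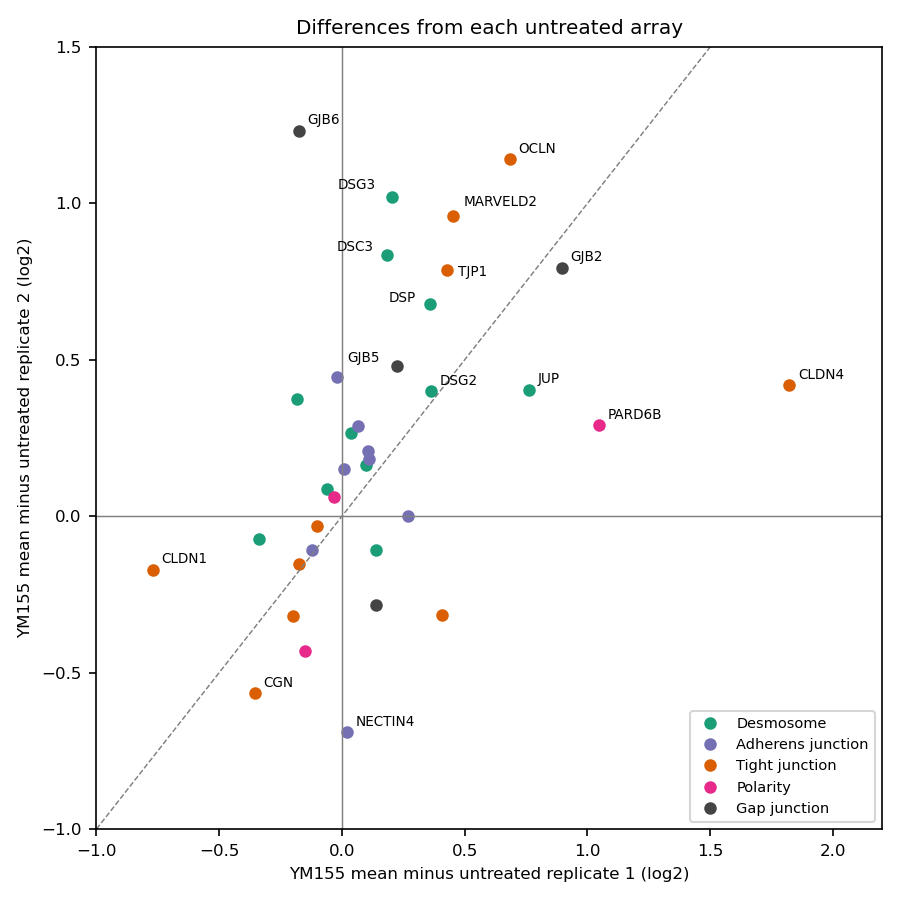
Each point is a junction gene, placed by the YM155 mean minus untreated replicate 1 (x axis, log2) and minus untreated replicate 2 (y axis, log2), both of which share the YM155 arrays; the dashed line marks equal differences. GJB2 and DSG2 lie near the line, CLDN4 and PARD6B well to its right, and GJB6, DSG3 and DSC3 well above it.

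The YM155 mean lay above both untreated arrays for 19 of the 36 genes, beside 27.6% of all genes tested, and below both for 8, beside 34.9%. For the other 9 it lay between them. The median difference of the junction genes was 0.10 log2 from untreated replicate 1 and 0.20 from untreated replicate 2, and that of all genes was -0.050 and 0.0075. Without untreated replicate 1, limma called OCLN, MARVELD2, DSG3 and GJB6 higher, at adjusted p of 0.0468, 0.0425, 0.0441 and 0.0407. In that fit 4.3% of all genes were called higher and 3.71% lower, and 0 junction genes were called lower. It takes the lone untreated array to vary like the YM155 arrays, and that array is the one farthest from the other 3. Leaving out any other single array gave 0 calls over all genes.

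Some of these genes lie side by side in the genome (RefSeq gene order, GRCh38.p14). MARVELD2 and OCLN are neighbours on chromosome 5, with no protein-coding gene between them, and both stood higher. The connexin genes GJA3, GJB2 and GJB6 follow one another on chromosome 13. GJA3, a connexin gene known from the lens, was at 6.86 and 6.99 log2 on the YM155 arrays and at 5.84 and 6.46 on the untreated arrays. Its lower untreated array was replicate 1, whereas that of GJB6 was replicate 2. On chromosome 18, DSC3 and DSC2 are neighbours, as are DSG3 and DSG2; DSC3, DSG3 and DSG2 had differences of 0.38 or more and DSC2 of 0.09. CDH3 and CDH1, neighbours on chromosome 16, both lay within 0.21 log2 of the untreated mean.

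Genes of the Snail and ZEB families were themselves measured. SNAI2, the gene of Slug, a repressor of E-cadherin and also a factor of basal keratinocytes, was at 10.22 and 10.23 log2 on the YM155 arrays and at 9.13 and 8.80 on the untreated arrays. The difference was 1.26 ± 0.16 (SE; limma adjusted p = 0.163), the lowest p of the lists examined here, without overlap, and without untreated replicate 1 it was 1.43 (limma adjusted p = 0.0407). ZEB1 was dim and stood 0.70 ± 0.19 higher (SE; limma adjusted p = 0.285), from 4.19 and 4.53 on the YM155 arrays and 3.52 and 3.81 on the untreated arrays. SNAI1, the gene of Snail itself, lay near the filter's limit and differed by -0.018, with overlapping arrays, and ZEB2 fell below the filter. TWIST1, another transcription factor of mesenchymal cells, was at 5.48 and 5.90 on the YM155 arrays and at 6.10 and 6.88 on the untreated arrays, which puts it at -0.80 ± 0.31 (SE; limma adjusted p = 0.406). Against untreated replicates 1 and 2 it was -0.41 and -1.19. Of the mesenchymal genes, the intermediate filament gene VIM had overlapping arrays, with 7.14 and 7.06 on the YM155 arrays and 6.80 and 7.96 on the untreated arrays. Its difference was 0.30 against untreated replicate 1 and -0.86 against replicate 2, and without replicate 1 its limma adjusted p was 0.0452. The fibronectin gene FN1 also had overlapping arrays, with 8.70 and 8.46 log2 on the YM155 arrays and 8.57 and 8.63 on the untreated arrays. Its difference was -0.019. TWIST2 fell below the filter. CDH2, which encodes N-cadherin, stayed near the filter's limit on all 4 arrays, between 3.59 and 3.71 log2.

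Of 84 further junction genes listed alongside, 48 were bright enough to test, with 24 positive and 24 negative differences and a median of 0.011 log2. At an unadjusted p under 0.05, 3 were higher and 3 lower, beside the 5.23% and 7.48% of all genes, and 0 passed after adjustment. DSG1, DSG4 and DSC1, the desmosomal cadherins of the upper epidermal layers and hair, had 1 probe set each and all fell below the filter.

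In the adherens junction, VCL, the gene of the actin linker vinculin, stood highest among 7 tested, at 11.0005 and 11.04 log2 on the YM155 arrays and at 10.34 and 10.59 on the untreated arrays. The difference was 0.55 ± 0.15 (SE; limma adjusted p = 0.273). AFDN, the gene of the nectin-binding protein afadin, differed by 0.39, or by 0.15 and 0.62 from untreated replicates 1 and 2, and the actin crosslinker gene ACTN1 by 0.26. ARVCF, a relative of p120 catenin, differed by -0.30, with arrays that did not overlap.

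In the tight junction, CXADR, the gene of the coxsackievirus and adenovirus receptor, stood lowest among 19 tested. It was at 8.58 and 8.25 log2 on the YM155 arrays and at 8.87 and 9.65 on the untreated arrays, which puts it at -0.84 ± 0.30 (SE; limma adjusted p = 0.367). Against untreated replicates 1 and 2 it was -0.45 and -1.24, and without replicate 1 its adjusted p was 0.0492. MAGI3, a membrane-associated scaffold gene, was at 6.35 and 6.38 on the YM155 arrays and at 6.94 and 6.73 on the untreated arrays, without overlap, which puts it at -0.47 ± 0.14 (SE; limma adjusted p = 0.311). AMOTL2, an angiomotin relative, differed by 0.36, or by 0.60 and 0.12 from untreated replicates 1 and 2, and JAM3 by 0.27.

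Among 13 polarity genes, STK11, which encodes the kinase LKB1, was at 6.23 and 6.19 log2 on the YM155 arrays and at 6.78 and 6.79 on the untreated arrays. The arrays of each group nearly coincided, and the difference was -0.57 ± 0.12 (SE; limma adjusted p = 0.233). PATJ, a scaffold of the Crumbs complex, differed by 0.49, or by 0.22 and 0.76 from untreated replicates 1 and 2, LLGL1 by -0.18 and the Crumbs gene CRB3 by -0.17. Of 9 further gap junction and pannexin genes, PANX1, the gene of a channel protein of the plasma membrane, was at 9.86 and 9.93 on the YM155 arrays and at 9.46 and 8.71 on the untreated arrays. Its difference was 0.81 ± 0.28 (SE; limma adjusted p = 0.35; without untreated replicate 1, 1.19 with adjusted p = 0.0407), beside 0.78 ± 0.24 for GJA3 (SE; limma adjusted p = 0.321). GJC1, a connexin gene of heart and smooth muscle, differed by -0.31, or by -0.17 and -0.44 from untreated replicates 1 and 2, and GJD3 by 0.25, or by 0.35 and 0.14.

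**Figure D4:**
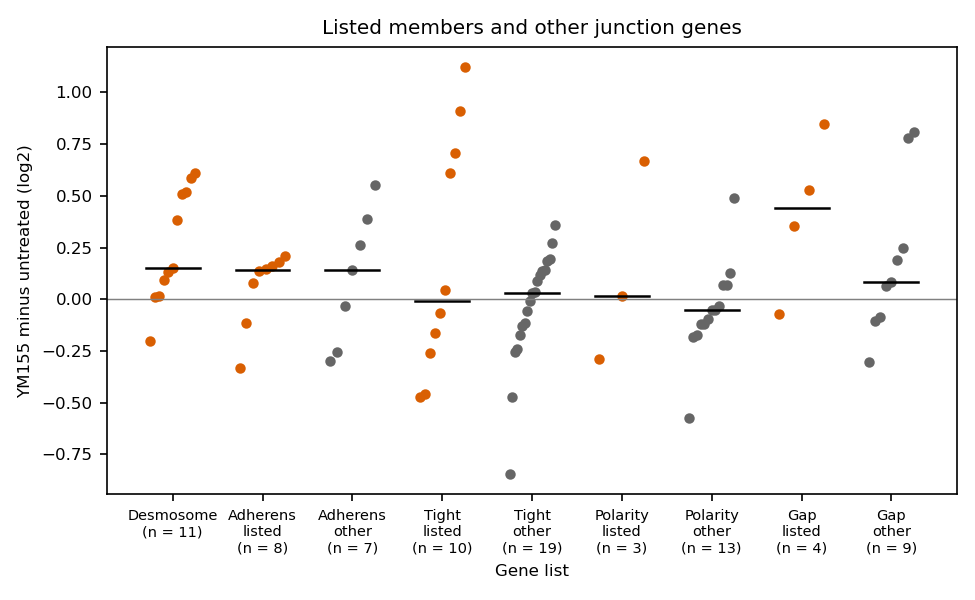
Points are YM155 minus untreated differences (log2) of single genes; orange points are the listed junction genes and grey points the further genes of the same junction, with the number tested below and the median as a bar. The listed tight junction genes span -0.47 to 1.12 and the further ones -0.84 to 0.36.

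Of 6 squamous marker genes examined, 4 had a probe set with their symbol alone, and KRT6A and TP63 had none. The summed intensity of the 4 was 19833 and 20519 on the YM155 arrays and 12357 and 17563 on the untreated arrays, so the sum was lowest on untreated replicate 1. It was mostly that of SFN and S100A2, which averaged 12.83 and 12.84 log2, beside 10.99 for KRT5 and 8.93 for KRT14. The sum is therefore not a check of squamous identity. SFN, the gene of 14-3-3 sigma, was at 13.15 and 13.19 log2 on the YM155 arrays and at 12.25 and 12.74 on the untreated arrays, 0.68 ± 0.20 higher (SE; limma adjusted p = 0.315). The basal keratin gene KRT5 was at 11.19 on both YM155 arrays and at 10.86 and 10.74 on the untreated arrays, 0.39 ± 0.13 higher (SE; limma adjusted p = 0.335). Neither overlapped. KRT14 differed by 0.49, or by 0.79 and 0.18 from untreated replicates 1 and 2, also without overlap. S100A2 overlapped, at 12.94 and 13.00 log2 on the YM155 arrays and at 12.37 and 13.05 on the untreated arrays. The part of these markers in the junction results was not tested. The summed intensity of 6 glandular markers was 56.6 and 58.9 on the YM155 arrays and 56.7 and 55.6 on the untreated arrays. Fibroblast markers, 6 in number, summed to 119 and 135 on the YM155 arrays and to 132 and 123 on the untreated arrays, leukocyte markers, 4 of 6 measured, to 37.3 and 37.6 against 35.3 and 42.2, and endothelial markers, 5 in number, to 54.5 and 54.3 against 57.0 and 52.0. Some markers of other cells passed the filter: 2 glandular ones, 3 of fibroblasts, 2 of leukocytes and 2 of endothelium. Among these, the fibroblast genes COL1A1, PDGFRB and DCN averaged 6.16, 4.46 and 3.96 log2 over the 4 arrays, the leukocyte genes CD3E and LCP2 3.75 and 3.38, and the endothelial genes PECAM1 and VWF 4.29 and 3.93. The others, with PTPRC, KDR, COL1A2 and LUM among them, averaged below the filter.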

How the data were processed

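Total RNA of 4 KYSE410 samples, 2 treated with YM155 and 2 untreated by their titles and treatment labels, was labelled from 200 ng and hybridised to Affymetrix 3' arrays, per the labels' protocols. The authors deposited linear intensity values for every probe set on each array, computed by RMA according to the submitters' processing notes. The RMA version is not stated there. RMA sets the arrays to a common distribution, so a shift shared by all genes is not measured, and probe intensities do not rank genes by abundance. The number of arrays limits the precision.

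Log2 of the deposited intensity was taken. The 62 control probe sets were left out, as were probe sets with a mean below the 40th percentile (3.32 log2), which kept 32768. Besides these controls, of 54675 probe sets in all, 41091 had 1 gene symbol in the platform annotation, 1801 several and 11721 none. Each gene was its brightest probe set (14043 genes). Groups were compared with limma 3.58.1 (R 4.3.3; lmFit, then eBayes; two-sided), with group alone in the model and p-values adjusted by Benjamini-Hochberg over all 14043 genes, or over all 32768 probe sets. Values on every array are given for the 38 listed genes with an unadjusted p under 0.05 or a difference of at least 0.5 log2, and a difference at least for the 4 largest of each further list; other values beyond this were chosen after they were seen. The genes and lists were chosen with earlier results of these data known. Alternatives were other filters, other ways to represent a gene, renormalization, other variance models, array weights, the replicate number as a block, and each array left out.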

Additional observations from a re-analysis of the deposited data

How the results depend on the processing

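Each group had 2 arrays, which left 2 residual degrees of freedom. No gene passed the adjusted threshold under any of the settings that kept all 4 arrays. With arrays left out, 0 to 1125 genes and 0 to 4 junction genes passed, all of them without untreated replicate 1. The probe set fit gave 0 in each case. With arrays left out, junction genes at an unadjusted p under 0.05 numbered 1 to 13 higher and 0 to 2 lower, and their probe sets 1 to 18 higher and 0 to 8 lower. With all 4 arrays, junction genes lower at that p were 2 when a gene was the mean over its probe sets. They were 0 when probe sets with an _x_at or _s_at suffix were dropped. Junction probe sets lower were 1 with trend and robust eBayes. The replicate number as a block gave 0 genes past the adjusted threshold, with 6 junction genes higher and 1 lower at an unadjusted p under 0.05; the titles share only a number, and deviations of same-numbered arrays correlated at -0.033 across probe sets. With single arrays left out, the junction genes' median lay between 0.10 and 0.20; with the mean of probe sets it was 0.048, and against untreated replicate 2 alone 0.072. For the measured junction genes, 309 of 316 single values under the other settings kept their direction. With the mean of probe sets PKP1 (-0.11), PKP2 (-0.28), PKP3 (-0.027), NECTIN2 (-0.11), LLGL2 (-0.089) and AFDN (-0.044) changed sign, and without suffixed probe sets CTNNA1 (0.20) and LLGL2 (-0.19). Over the arrays left out, sign changed for DSC2 (-0.18 to 0.37), PKP1 (-0.062 to 0.086), PKP2 (-0.11 to 0.14), CDH1 (-0.021 to 0.44), NECTIN4 (-0.69 to 0.021), CLDN7 (-0.17 to 0.037), CLDN12 (-0.32 to 0.41), LLGL2 (-0.032 to 0.061), GJA1 (-0.28 to 0.14), GJB6 (-0.17 to 1.23) and VIM (-0.86 to 0.30). The cause was not tested.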

Other observations

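The distance between the 3' and 5' ACTB control probe sets varied between arrays. The 5' ACTB control probe set was brighter on YM155 replicate 1 and untreated replicate 2 than on the others. Of the 79 kept junction probe sets, 12 (15.2%) had the same array order, beside 13.1% of all kept probe sets. Among them were the dimmer probe sets of DSG2 and CDH1. That of CDH1 was at 5.03 and 4.41 log2 on the YM155 arrays and at 4.64 and 4.90 on the untreated arrays.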
